A study of Canis lupus familiaris with 186 samples.

Results

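The endothelial and angiopoietin genes described here are PECAM1, VWF, CDH5, KDR, FLT1, TEK, TIE1, ENG, ANGPT1 and ANGPT2, chosen by name, and make up 10 of the 37952 genes in the deposited table. The first 8 are genes of the endothelium, the cell layer that lines blood vessels, and the last pair encodes secreted ligands of the receptor TEK. Each had at least 7 counts in every tumor, and all 10 were among the 13422 genes kept by the filter on low counts.

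Endothelial cells are joined by the adhesion molecules PECAM1 and VE-cadherin, the product of CDH5, and store von Willebrand factor, the product of VWF, which tethers platelets to injured vessel walls. Vascular endothelial growth factors (VEGF) act on them through the receptor tyrosine kinases KDR, the main receptor for endothelial growth, and FLT1, which binds VEGFA and placental growth factor and can act as a trap for them. A separate pair of receptor tyrosine kinases, TEK and TIE1, maintains resting vessels. ANGPT1, made largely by cells around the vessel, activates TEK. ANGPT2, made and stored by activated endothelial cells, often opposes it and loosens the vessel wall. ENG (endoglin) is a co-receptor for ligands of the TGF-beta and BMP family.

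The samples were primary osteosarcomas of the limbs of 186 pet dogs, with 93 dogs labelled as from the trial COTC021 and 93 from COTC022. Each library is a separate dog. All biopsies were taken before treatment, and the dogs, which were of mixed age, breed and sex, later received amputation and carboplatin with or without rapamycin. The labels give no treatment arm, so the trial is the only group used. The poly(A)-selected, stranded libraries held from 6587637 to 27420866 counts, with a median of 10797172. The column names of 50 libraries contain the characters `__`, and these held a median of 19440471 counts, against 9851691 in the other 136. As they comprise 18 dogs of COTC021 and 32 of COTC022, results were also computed within each set of libraries. What the name stands for is not given in the sources used here.

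Levels are given as CPM, the counts of a gene scaled to the total count of its library. They were compared across tumors only and not between genes, since CPM do not correct for the length of a transcript. The tumors are bulk tissue, so fewer vessels and less RNA of a gene per endothelial cell cannot be told apart. The position of each gene is that of the RefSeq annotation of the canine build GSD_1.0, to which the reads were mapped.

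The adhesion genes and the platelet-binding gene were detected in every tumor over a wide range. PECAM1 (chromosome 9, 14705590 to 14758833) had a lowest, median and highest level of 33.0, 228 and 1155 CPM in COTC021 and of 37.2, 229 and 1271 CPM in COTC022. CDH5 (chromosome 5, 83417122 to 83449500) ranged from 4.72 to 278 CPM around a median of 65.4 in COTC021 and from 4.17 to 248 CPM around 60.8 in COTC022. VWF (chromosome 27, 7119622 to 7257688) ranged from 7.67 to 607 CPM around a median of 77.0 in COTC021 and from 5.24 to 630 CPM around 69.5 in COTC022. For all 3 genes the ranges of the trials overlapped almost entirely. VWF varied most among the 10 genes, with an 11.7-fold distance between the 10th and the 90th percentile of tumors, and its SD of 1.38 on the log2 scale was larger than that of 88.9% of the genes tested.

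The VEGF receptors KDR and FLT1 varied less. KDR (chromosome 13, 48206381 to 48248022) ranged from 15.8 to 181 CPM around a median of 65.4 in COTC021 and from 11.8 to 507 CPM around 63.9 in COTC022. FLT1 (chromosome 25, 11290416 to 11468726) ranged from 12.0 to 207 CPM around a median of 52.0 in COTC021 and from 11.9 to 354 CPM around 53.0 in COTC022. The 10th and the 90th percentile lay 4.88-fold apart for KDR and 4.06-fold for FLT1, and the high maxima of COTC022 came from the single library described below.

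The angiopoietin receptor TEK had a wider range of levels than its relative TIE1. TEK (chromosome 11, 45518478 to 45616970) ranged from 2.60 to 170 CPM around a median of 34.3 in COTC021 and from 1.81 to 280 CPM around 32.4 in COTC022. TIE1 (chromosome 15, 16941001 to 16959771) ranged from 3.06 to 125 CPM around a median of 35.1 in COTC021 and from 2.36 to 153 CPM around 37.6 in COTC022. The distance between the 10th and the 90th percentile was 7.79-fold for TEK and 4.88-fold for TIE1. ENG (chromosome 9, 55646354 to 55677713) was the most even, with 32.1 to 291 CPM around a median of 118 in COTC021, 18.2 to 286 CPM around 112 in COTC022, and 3.44-fold between those percentiles.

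Both ligands were read from few counts, with a median of 77 counts in a library for ANGPT1 and 117 for ANGPT2. ANGPT1 (chromosome 13, 8284694 to 8525154) ranged from 0.66 to 102 CPM around a median of 6.49 in COTC021 and from 0.52 to 80.5 CPM around 6.50 in COTC022. ANGPT2 (chromosome 16, 55977188 to 56030293) ranged from 1.35 to 37.2 CPM around a median of 10.1 in COTC021 and from 1.03 to 64.0 CPM around 10.7 in COTC022. The 10th and the 90th percentile lay 11.1-fold apart for ANGPT1 and 7.25-fold for ANGPT2.

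**Figure D1:**
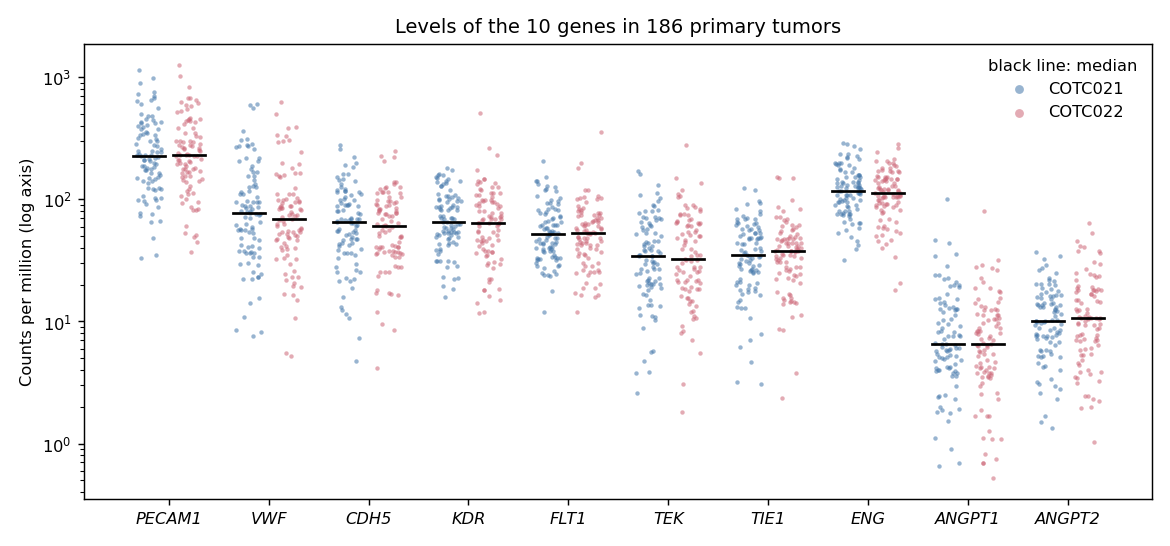
Level of each gene in CPM on a log axis, with a point for each of the 93 tumors of COTC021 and the 93 of COTC022 and a black line at the median. The points of the trials overlap for each gene, and ANGPT1 and ANGPT2 have medians of 6.50 and 10.3 CPM over all tumors.

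A single COTC022 tumor, sequenced in one of the 50 libraries with `__` in their names, had the highest PECAM1, KDR, FLT1 and TEK of all 186 tumors and the second highest TIE1 and ENG. Its KDR was 507 CPM, 7.85 times the median, and the next highest tumor had 266 CPM. Its TEK was 280 CPM, 8.17 times the median, against 170 CPM in the next highest tumor. ANGPT1 was at 4.14 CPM there, 0.64 times the median. Taking the 19 highest tumors for each of the 8 endothelial genes, 2 tumors were among the 19 for all 8 genes, 9 tumors for 6 or more, and 138 for none. At the low end, 9 tumors were among the lowest 19 for 6 or more of the 8 genes.

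No member was called different between the trials. The differences of COTC022 from COTC021 ran from a log2 change of -0.22 ± 0.19 (SE) for ANGPT1 to 0.10 ± 0.18 for TEK, and the smallest limma-voom adjusted p among the 10 was 0.765. No member had an unadjusted p under 0.05, none was called by edgeR or DESeq2, and the background was as low, with 2 of 13422 genes (0.0149%) called by limma-voom, 129 by edgeR and 71 by DESeq2. The 95% intervals reached from -0.60 for ANGPT1 to 0.45 for TEK. Of the other genes of these pathways, 0 of 8 in the VEGF family, 0 of 7 angiopoietin-related genes, 0 of 13 genes of Notch and endoglin signalling and 0 of 26 further endothelial genes were called by limma-voom. At an unadjusted p under 0.05 these lists held 0, 0, 1 and 1 genes. Over all 13422 genes, 1332 had an unadjusted p under 0.05 in the same limma-voom fit. TEK was at 0.68 in the 50 libraries with `__` and at -0.16 in the other 136, and the difference between the sets did not pass (limma-voom interaction, adjusted p = 0.421, unadjusted p = 0.0371). No gene was called for this interaction, and 1466 of all 13422 genes had an unadjusted p under 0.05.

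The balance of the angiopoietins varied widely within each trial and was not called different between them. The log2 ratio of ANGPT2 to ANGPT1 CPM had a mean of 0.43 ± 1.62 (SD, n = 93) in COTC021 and 0.74 ± 1.84 (SD, n = 93) in COTC022. The difference of 0.31 was smaller than either SD (two-sided permutation test with 100000 resamples, p = 0.225). Over all tumors the ratio ran from -4.07 to 6.23, with a median of -0.04 in the 50 libraries with `__` and 0.76 in the other 136, a difference that was not tested.

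The endothelial genes were positively correlated across tumors, and fewer pairs with the ligands were called. Of the 45 pairs among the 10 genes, 36 were called, meaning that each gene of the pair passed an adjusted p under 0.05 in a limma-trend fit with the other as a covariate, and 0 of these were negative. All 28 pairs among the 8 endothelial genes were called, with Pearson r of log2 CPM from 0.39 to 0.92 and a median of 0.72. Spearman's rho of these 28 pairs ran from 0.42 to 0.92, and r and rho both had a permutation p of 1e-05, the smallest that 100000 resamples can give. The share of all other genes called positive is the background for these counts, and it was 20.1% for PECAM1, 18.2% for VWF, 16.8% for CDH5, 19.2% for KDR, 14.7% for FLT1, 24.5% for TEK, 14.9% for TIE1, 16.9% for ENG, 4.91% for ANGPT1 and 3.03% for ANGPT2.

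PECAM1, CDH5, KDR, FLT1, TEK and TIE1 were the most tightly linked. Their 15 pairs had r from 0.71 to 0.92, and the lowest value within a trial or a set of libraries was 0.70, for FLT1 and TEK in the 136 libraries. The adhesion genes PECAM1 and CDH5 had the highest r of all pairs, 0.92, with 0.94 in COTC021 and 0.90 in COTC022. CDH5 followed TIE1 with r = 0.89, and the VEGF receptors KDR and FLT1 followed each other with r = 0.86. In each of these pairs, one gene had the other as the closest of all 13421 genes. TEK had r = 0.88 with PECAM1, 0.84 with CDH5, 0.83 with TIE1 and 0.71 with FLT1.

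VWF and ENG shared less with the rest. VWF had r = 0.71 with PECAM1 and lower values down to 0.39 with TIE1, a pair that was not called within the 50 libraries with `__` (r = 0.31, limma-trend adjusted p = 0.172). ENG had r from 0.45 with FLT1 to 0.62 with PECAM1, the gene closest to it of all 13421.

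ANGPT2 was called with 6 of the other 9 genes and ANGPT1 with 2. ANGPT2 had its highest r with VWF, 0.48, and with PECAM1, 0.45. With its receptor TEK it had r = 0.17 (limma-trend adjusted p = 0.18 at the larger of both fits), and with TIE1 r = 0.22, a call lost, among other settings, without the COTC022 tumor described above (limma-trend adjusted p = 0.0773). ANGPT1 was called with KDR (r = 0.31) and CDH5 (r = 0.24), and neither call held within COTC021 alone, where the values were 0.14 and 0.10. Of all 13421 genes, 2 were called positive with ANGPT1 in COTC021 and 306 in COTC022, against 659 in all tumors. ANGPT1 had r = 0.17 with TEK. The r of ANGPT1 with ANGPT2 was -0.02 (permutation p = 0.825). ANGPT1 had a higher r with each endothelial gene in the 50 libraries with `__` than in the other 136. For KDR, CDH5 and TIE1 the values were 0.50, 0.47 and 0.46, against 0.21, 0.13 and 0.05. With ANGPT2 the r was lower in the 50 libraries, at -0.12 against 0.03. The differences between the sets were not tested.

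**Figure D2:**
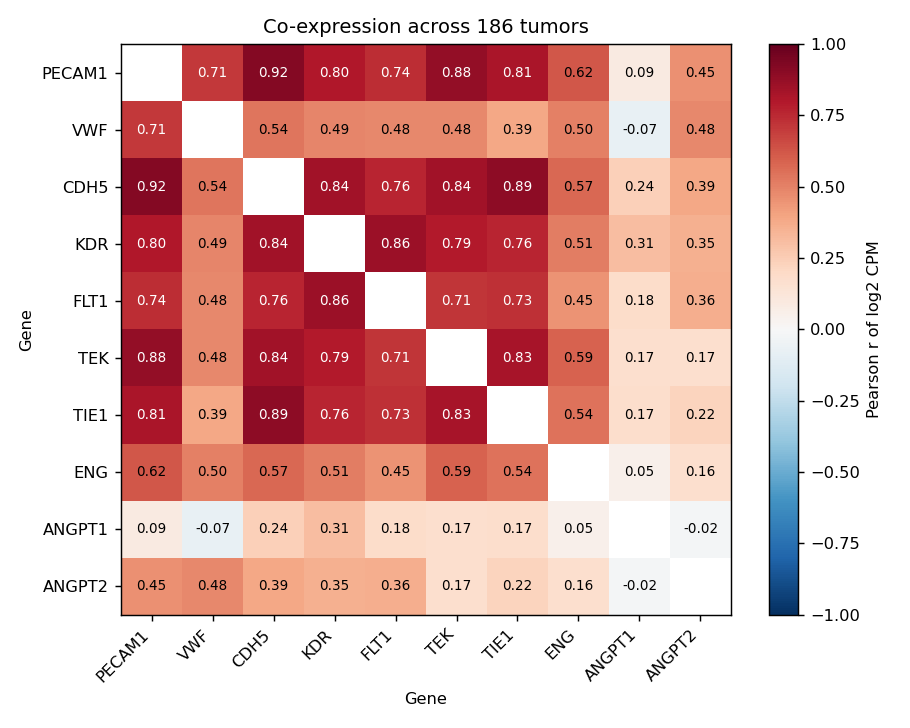
Pearson r of log2 CPM for each pair of the 10 genes across 186 tumors, on a color scale from -1 (blue) to 1 (red). PECAM1, CDH5, KDR, FLT1, TEK and TIE1 form a block with r of at least 0.71, while the row of ANGPT1 stays between -0.07 and 0.31.

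Outside the members, the genes of highest r were named for each member. PECAM1 was closest to ESAM (r = 0.92), an endothelial junction molecule, ECSCR (r = 0.91) and MYCT1 (r = 0.90). CDH5 was closest to ROBO4 (r = 0.88), an endothelial guidance receptor, CD93 (r = 0.87) and NOVA2 (r = 0.87). KDR and FLT1 shared their closest pair, PODXL, with r = 0.86 for KDR and 0.82 for FLT1, and RASGRP3, with 0.84 and 0.82. Next came ADGRL4 for KDR (r = 0.84) and the endothelial Notch receptor NOTCH4 for FLT1 (r = 0.79). TEK was closest to ADGRL4 (r = 0.89), ARHGEF15 (r = 0.89) and the ectonucleotidase ENTPD1 (r = 0.89), and TIE1 to PCDH12 (r = 0.89), the apelin receptor APLNR (r = 0.89) and BCL6B (r = 0.88).

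The remaining members had other neighbors. VWF was closest to SOD3 (r = 0.76), an extracellular superoxide dismutase, PREX2 (r = 0.76) and the matrix peroxidase PXDN (r = 0.73). ENG had ENTPD1 (r = 0.62), MALL (r = 0.61) and MAP3K11 (r = 0.60). ANGPT2 was closest to IGFBP3 (r = 0.64), a binding protein of insulin-like growth factors, APLN (r = 0.53), the ligand of the apelin receptor, and WSCD1 (r = 0.51). ANGPT1 had no close neighbor, with r = 0.42 for KITLG, the ligand of the receptor KIT, 0.42 for POGZ and 0.41 for NOTCH2.

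Ligands and partners of the receptors were set beside them in 110 relations of the 10 members with 11 genes. PTPRB, the endothelial phosphatase that removes phosphate from TEK, followed TEK and PECAM1 with r = 0.85, KDR with 0.81 and FLT1 with 0.79, and it had r = 0.15 with ANGPT1, which was not called. ACVRL1, the receptor that signals with endoglin, had r = 0.72 with TEK and 0.49 with ENG. DLL4, the Notch ligand of sprouting vessels, followed FLT1 (r = 0.72) and TIE1 (r = 0.70) and also ANGPT2 (r = 0.49), for which it ranked 5 among 13421 genes. FLT4, the receptor of VEGFC, had r = 0.69 with TIE1 and 0.32 with ANGPT1, and its r of 0.08 with VWF was not called.

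VEGFA had no common sign with the endothelial genes. It had r = 0.22 with FLT1 (limma-trend adjusted p = 0.00956) and 0.26 with ANGPT2 (adjusted p = 0.0181), but r = -0.25 with TEK (adjusted p = 0.00136) and -0.23 with ENG (adjusted p = 0.00939). With KDR, its main receptor, r was 0.07 and not called. Placental growth factor, PGF, had r = 0.38 with ANGPT2, 0.33 with TIE1 and 0.29 with FLT1, and 0.07 with TEK. VEGFC was called with every member except ANGPT1, with r from 0.33 for ANGPT2 to 0.59 for PECAM1.

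GS-1 is a signature, mostly of leukocyte genes, whose expression the study used to divide tumors. Here 27 of its genes served as a continuous score, their mean z-score scaled to an SD of 1, and no tumor was placed in a group by it. With a higher GS-1 score, 6 of the 10 members rose and none fell, against a background of 22.3% of all genes called higher (6507 of 13422 genes were called in either direction, and 3513 of them fell). The median slope of the 10 members was 0.16, against -0.02 over all genes. TEK rose most, by a log2 slope of 0.43 ± 0.08 (SE) per SD of the score (limma-voom adjusted p = 2.57e-06). PECAM1 rose by 0.29 ± 0.07 (adjusted p = 0.000486), VWF by 0.26 ± 0.10 (adjusted p = 0.0258), CDH5 by 0.19 ± 0.08 (adjusted p = 0.0348), ENG by 0.17 ± 0.05 (adjusted p = 0.00297) and KDR by 0.15 ± 0.06 (adjusted p = 0.0453). The values of FLT1, 0.07 ± 0.06, TIE1, 0.09 ± 0.07, ANGPT2, 0.04 ± 0.08, and ANGPT1, -0.14 ± 0.10, did not pass.

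The TEK call was kept within each trial, at 0.36 in COTC021 (adjusted p = 0.014) and 0.50 in COTC022 (adjusted p = 0.000257), and within both sets of libraries. Within COTC021 it was the only call among the 10, with ENG at 0.06 (adjusted p = 0.581), and within COTC022 there were 5. Of all 13422 genes, 1879 were called higher with the score in COTC021 and 2315 in COTC022. The slopes were not shown to differ between trials, as no gene was called for the interaction by limma-voom (375 genes had an unadjusted p under 0.05). The unadjusted p of the interaction was 0.0321 for ENG, higher in COTC022, and at least 0.0759 for the other 9. No gene was called either for the interaction of the score with the set of libraries (960 genes had an unadjusted p under 0.05, among them ANGPT2 with p = 0.0436). The calls of CDH5 and KDR were lost with edgeR and DESeq2, and ANGPT1 was called lower with both, by -0.31 with either (adjusted p = 0.00745 and 0.00131). The call of VWF was lost without the pair of tumors farthest from the median score (0.20, adjusted p = 0.136).

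**Figure D3:**
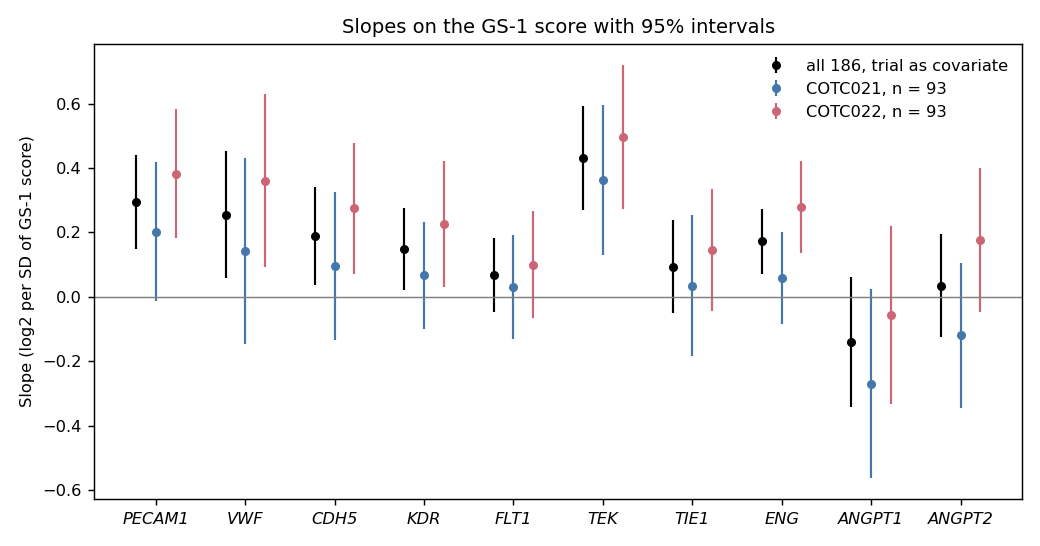
Slope of each gene on the GS-1 score in log2 units per SD, with 95% intervals, over all 186 tumors with trial as a covariate (black) and within each trial of 93 tumors (blue, COTC021, and red, COTC022). TEK has the highest slope in all tumors (0.43) and in each trial (0.36 and 0.50), and the intervals of FLT1, TIE1, ANGPT1 and ANGPT2 include 0.

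Log2 ratios of related genes were formed after the slopes of the single genes had been seen, so they are given as descriptions with no test. The log2 ratio of TEK to TIE1 rose with the GS-1 score, by 0.35 ± 0.04 (SE) per SD (r = 0.51, rho = 0.51). The r was 0.56 in COTC021 and 0.47 in COTC022. The single slopes were 0.43 for TEK and 0.09 for TIE1. The ratio of KDR to FLT1 rose by 0.09 ± 0.03 (r = 0.19, rho = 0.26), with r = 0.08 in COTC021 and 0.29 in COTC022. The ratio of ANGPT2 to ANGPT1 had r = 0.08 and rho = 0.02 with the score. The ratio of ANGPT2 to its receptor TEK had a slope of -0.44 ± 0.11 on the score (r = -0.29, rho = -0.33). Its r was -0.37 in COTC021 and -0.23 in COTC022. TEK had the highest and ANGPT2 a low slope of its own.

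Among the other endothelial genes, 18 of 26 rose with the GS-1 score and 0 fell, with a median slope of 0.19 against -0.02 over all genes. The largest slopes were those of the leukocyte-binding selectins SELE (0.84) and SELP (0.50) and of the junction gene CLDN5 (0.38). The counts of the next 3 lists are read against the 22.3% of all genes that rose and the 26.2% that fell. In the VEGF family, VEGFB and VEGFC rose by 0.11 and 0.16 and VEGFA fell by 0.20, out of 8. Of 7 angiopoietin-related genes PTPRB rose by 0.30 and ANGPTL4, a lipid-handling and hypoxia-responsive relative, fell by 0.47, while ANGPTL2 had -0.31 and was not called. Of 13 genes of Notch and endoglin signalling, ACVRL1 rose by 0.14 and 5 fell, among them ID1 (-0.62) and HEY1 (-0.40), targets of BMP and Notch signals, and SMAD6 (-0.22).

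Leukocyte genes moved with the same score, 12 of 12 higher with a median slope of 0.99, and 1 of these, CD53, is itself a GS-1 gene. The leukocyte score had r = 0.38 with TEK, 0.30 with PECAM1 and 0.26 with ENG, which can also be expressed by leukocytes, and its part in the slopes of these genes was not tested. The score of the 26 other endothelial genes was then entered as a further covariate, an analysis chosen after seeing the data. The slope of TEK was 0.15 (limma-voom adjusted p = 0.000346). The slopes of FLT1 and TIE1 became negative, at -0.11 (adjusted p = 0.0144) and -0.14 (adjusted p = 0.00149), and no other member was called. Of all 13422 genes, 2572 rose and 3051 fell in this fit. The covariate itself rises with the GS-1 score (18 of its 26 genes), which lowers the slopes of members that follow it.

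Scores of 12 marker lists, each the mean z-score of the list's genes, were then compared with the members. Of the 120 relations, 70 were called. The 26 other endothelial genes moved with 9 members, all except ANGPT1 (20.0% of all genes called positive), with r from 0.38 for ANGPT2 to 0.93 for PECAM1, and their r with ANGPT1 was 0.09. Over the 10 members the median r with this score was 0.78, against -0.01 over all genes. Markers of mural cells, the pericytes and smooth muscle around vessels, were positive with the same 9 members (19.9% of all genes), with the highest r for PECAM1 (0.69), VWF (0.67) and TEK (0.61) and 0.07 for ANGPT1. Lymphatic markers were positive with the 8 endothelial genes (25.8% of all genes), and the defining lymphatic gene PROX1 did not pass the filter.

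Markers of cells outside the vessel wall were also compared. Leukocyte markers were positive with 6 members, which did not include VWF and FLT1 (22.7% of all genes), and fibroblast markers with 6, led by VWF with r = 0.41 (19.6%). Adipocyte markers were positive with 8 members (4.15%), but only LPL and PPARG of the list's 6 genes passed the filter and both are expressed in other cells. For ANGPT1 this was the only score called positive, with r = 0.30. Skeletal muscle markers were positive with PECAM1, VWF and TEK (5.96%) and cartilage markers with VWF and ANGPT2 (15.1%). The platelet score, for which 2 of 10 genes passed, was negative with VWF alone (6.33% of all genes), at r = -0.27. Many of these calls were lost within subsets, which hold fewer tumors and mostly had fewer calls over all genes too. Leukocyte calls fell to 1 in COTC021 (TEK), 4 in COTC022, 1 in the 50 libraries (ENG) and 4 in the 136. The counts of all genes called positive there were 2045, 2334, 1849 and 2506 of 13410, against 3042 in all tumors. Fibroblast calls numbered 7 in COTC021, 2 in COTC022 (VWF and TEK), 0 in the 50 libraries and 6 in the 136. Adipocyte calls numbered 5, 4, 0 and 7 in the same order. Of all 13413 genes, 1880, 1381, 1038 and 2437 were positive with fibroblast markers, against 2623 in all tumors. For adipocyte markers these were 79, 130, 1 and 598 of 13420 genes, against 557 in all tumors. Skeletal muscle calls numbered 0 in COTC021 and in the 50 libraries and 3 in both other subsets. Cartilage calls numbered 2 in COTC021, 1 in COTC022, 0 in the 50 libraries and 1 in the 136. The platelet call was kept in the 50 libraries alone. In the same order, 107, 659, 188 and 271 of 13414 genes were positive with muscle markers, against 799 in all tumors. For cartilage markers these were 793, 863, 484 and 1064 of 13415 genes, against 2027 in all tumors. Negative with the platelet score were 206, 238, 194 and 256 of 13420 genes, against 850 in all tumors.

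**Figure D4:**
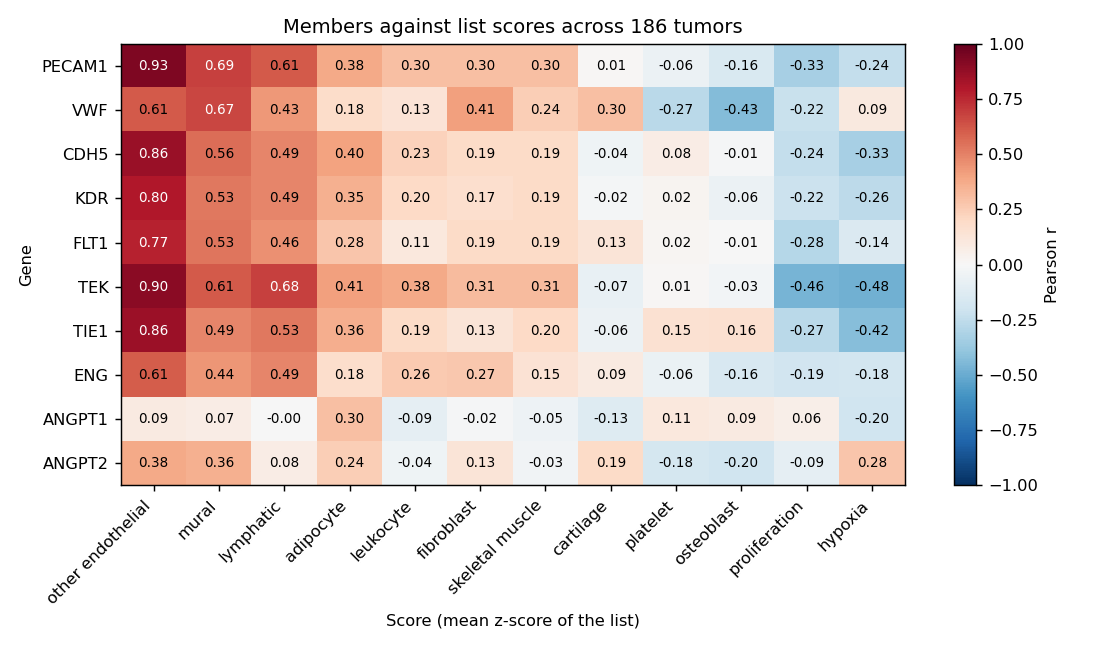
Pearson r of each gene (rows) with the score of each of 12 marker lists (columns) across 186 tumors, on a color scale from -1 (blue) to 1 (red). The hypoxia column is negative for TEK (-0.48) and TIE1 (-0.42) and positive for ANGPT2 (0.28), and the osteoblast column is most negative for VWF (-0.43).

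VWF and ANGPT2 were negative with the osteoblast score (17.7% of all genes called negative). VWF had r = -0.43 and rho = -0.37 (permutation p = 1e-05 for both, limma-trend adjusted p = 1.74e-08), and it ranked 13312 of 13414 genes from the highest r downwards. The value was -0.41 in COTC021 and -0.46 in COTC022, and it was -0.71 in the 50 libraries with `__` against -0.34 in the other 136, a difference that was not tested. CDH5, FLT1 and TEK had r of -0.01, -0.01 and -0.03 with this score. PECAM1 and ENG had r = -0.16 and TIE1 had 0.16, none of which was called. In the 50 libraries PECAM1 and ENG were called negative as well, as was PECAM1 in COTC022, and TIE1 was called positive in the 136. ANGPT2 had r = -0.20, which was not called within COTC021 (r = -0.10) or in the 136 libraries. Negative with this score were 1198 of 13414 genes in COTC021, 1245 in COTC022, 909 in the 50 libraries and 1836 in the 136. In all tumors there were 2370. Positive were 1971 genes in the 136 libraries, against 2381 in all tumors.

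With the proliferation score, the 8 endothelial genes were negative and both ligands were not called (29.5% of all genes called negative). TEK had the lowest value, r = -0.46 and rho = -0.51 (permutation p = 1e-05 for both), and the others lay between -0.19 for ENG and -0.33 for PECAM1. ANGPT1 had r = 0.06 and ANGPT2 r = -0.09. The calls numbered 7 in COTC021 and 3 in COTC022 (PECAM1, VWF and TEK). They numbered 3 in the 50 libraries (PECAM1, TEK and ENG) against 7 in the 136, so that only PECAM1 and TEK were called in all 4 subsets. Of all 13412 genes, 2965, 2376, 1866 and 3318 were called negative in these subsets, against 3956 in all tumors. After the other endothelial score was entered as a covariate, the partial r of TEK stayed negative and called. Those of CDH5 (0.23, limma-trend adjusted p = 0.00606) and KDR (0.18, adjusted p = 0.0369) were positive. In this fit 2766 of 13412 genes were called positive and 3196 negative.

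Hypoxia is a known inducer of VEGFA and ANGPT2. The hypoxia score, from 11 response genes such as CA9, ADM and PGK1, had both signs among the members. It was negative with 7 members (13.0% of all genes called negative) and positive with ANGPT2 (10.2% of all genes called positive), and VWF and FLT1 were not called, at r = 0.09 and -0.14. VEGFA, not a gene of the score, had r = 0.53. TEK had r = -0.48 and rho = -0.40 (permutation p = 1e-05 for both, limma-trend adjusted p = 1.37e-09), and TIE1 had r = -0.42 and rho = -0.29. CDH5 had r = -0.33, KDR -0.26, PECAM1 -0.24, ANGPT1 -0.20 and ENG -0.18. The calls of ANGPT1 and ENG held in neither trial alone and in neither set of libraries. That of ENG was also lost with ranks, and that of ANGPT1 with quantile normalization. ANGPT2 had r = 0.28 and rho = 0.26 (limma-trend adjusted p = 0.00164).

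The relation of TEK to hypoxia was called in each trial, with r = -0.52 in COTC021 and -0.44 in COTC022, and in both sets of libraries, with -0.52 and -0.47. It was -0.45 without the pair of tumors of the most extreme score. That of ANGPT2 was called in COTC022 (r = 0.34, adjusted p = 0.0186) and not in COTC021 (r = 0.21, adjusted p = 0.227), and in the 136 libraries but not in the 50 (r = 0.22, adjusted p = 0.51). The calls of PECAM1, CDH5 and KDR were kept in COTC021 and lost in COTC022, where r was -0.13, -0.21 and -0.21. Positive with the hypoxia score were 221 of 13411 genes in COTC021, 498 in COTC022, 54 in the 50 libraries and 868 in the 136. In all tumors there were 1367. Negative in the same order were 358, 618, 50 and 1079 genes, against 1743 in all tumors.

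TEK and its ligand ANGPT2 had opposite signs with hypoxia, and their log2 ratio, formed after these signs were seen, is given as a description with no test. The other ratios, formed after the GS-1 slopes were seen, are also given without a test. The ratio of ANGPT2 to TEK rose by 0.89 ± 0.09 (SE) per SD of the hypoxia score, with r = 0.60 and rho = 0.49. It had r = 0.58 in COTC021, 0.61 in COTC022, 0.60 in both sets of libraries and 0.56 without the most extreme pair of tumors. The ratio of ANGPT2 to ANGPT1 rose by 0.56 ± 0.12 with r = 0.33 and rho = 0.32, and r was 0.26 in COTC021 and 0.40 in COTC022. The ratio of TEK to TIE1 fell, by 0.16 ± 0.05 (r = -0.23, rho = -0.28), with r = -0.13 in COTC021 and -0.32 in COTC022. The ratio of KDR to FLT1 also fell, by 0.12 ± 0.03 (r = -0.25, rho = -0.27), with r = -0.26 in each trial.

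**Figure D5:**
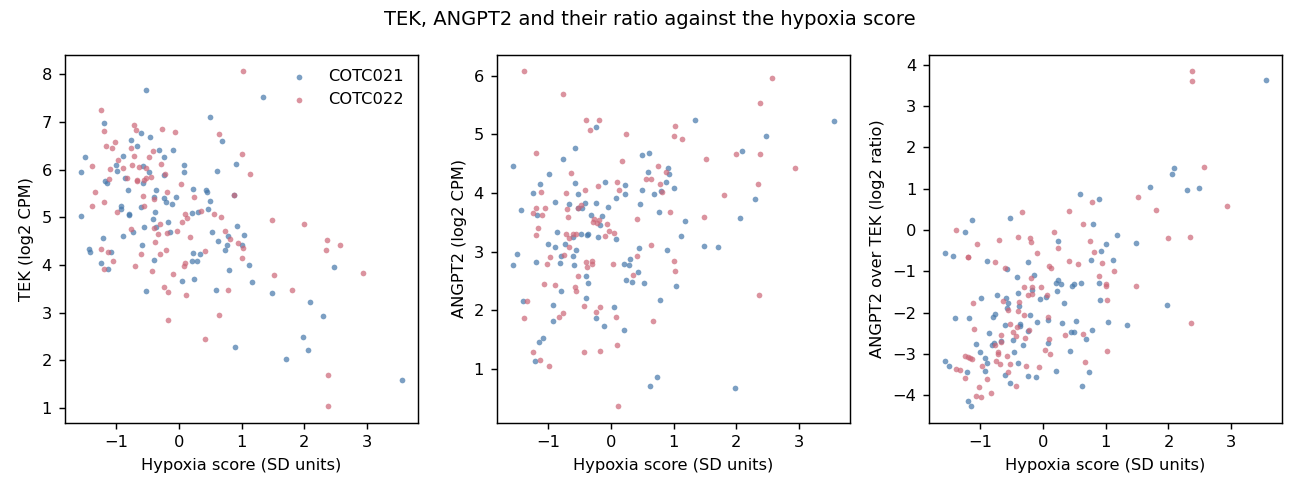
Log2 CPM of TEK (left) and ANGPT2 (middle) and the log2 ratio of ANGPT2 to TEK (right) against the hypoxia score in SD units, with a point for each tumor of COTC021 (blue) and COTC022 (red). TEK goes down with the score (r = -0.48), ANGPT2 goes up (r = 0.28), and their ratio goes up with r = 0.60.

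At a given level of the 26 other endothelial genes, entered as a covariate after seeing the data, hypoxia was related to fewer members, and in both directions. Of 13411 genes, 1167 were called positive and 1369 negative in this fit. ANGPT2 and VWF were positive, with a partial r of 0.47 (limma-trend adjusted p = 3.91e-09) and 0.41 (adjusted p = 7.89e-07). PECAM1 and FLT1 were positive as well, with 0.25 (adjusted p = 0.00729) and 0.20 (adjusted p = 0.0391). PECAM1 had r = 0.93 with the covariate score, so its partial r rests on the small part of its variation that remains. TEK and TIE1 remained negative, with -0.42 (adjusted p = 6.97e-07) and -0.26 (adjusted p = 0.00517). CDH5, KDR, ENG and ANGPT1 were not called, with partial r of -0.08, 0.03, 0.04 and -0.18.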

How the data were processed

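mRNA sequencing of 186 primary tumors was analysed. The authors trimmed the reads with cutadapt, aligned them to the canine build GSD_1.0 with STAR 2.7.0f and quantified genes with RSEM 1.3.1. The authors deposited expected counts without normalization, of which 3.07% were not whole, and these were rounded here. Of 198 columns, 12 match no sample label and were not used.

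Genes were kept with filterByExpr (a minimum count of 10, a proportion of 0.5 and a large group of 5 samples), which left 13422, and normalized with TMM in edgeR 4.0.16. The trial and the GS-1 score (from quantile-normalized log2(CPM + 2), with trial as a covariate) were fitted with limma-voom (limma 3.58.1, R 4.3.3) over all genes. Co-expression and list scores used limma-trend on log2 TMM CPM with a prior count of 2 and trial as a covariate. P-values were Benjamini-Hochberg adjusted over all genes, with a threshold of 0.05. The log2 ratio of the ligands used a pseudocount of 0.5 counts. Permutation tests were two-sided (numpy 2.4.6, scipy 1.17.1, pandas 2.3.3, Python 3.11.15), and figures used matplotlib 3.10.9. Partial r is the r after the covariate is removed from both variables. On simulated data, the trial fit called 61 of 100 genes changed by a log2 of 0.5 and 100 of 100 changed by 1. There were 5 wrong calls in the whole set of 13422 genes. The fit of a continuous score called 100 of 100 at each change, with 14 wrong calls. How often such changes would be called for the members in the tumors was not tested.

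Alternatives were edgeR's quasi-likelihood test, DESeq2 1.42.0, its size factors, no filter, ranks, quantile normalization, the library name as a covariate, and subsets of trials and libraries. The members and lists were chosen with earlier results of these data known. Named beside them are, for each member, the 3 genes outside the members with a symbol, LOC names left out, and the highest r, partners of the members, and the genes of 3 largest changes among VEGF, angiopoietin, Notch and endothelial genes. GS-1 clusters, disease-free interval and survival were not used here, since the labels do not give them.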

Additional observations from a re-analysis of the deposited data

How the results depend on the processing

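ANGPT1 had as few as 7 counts in a library, the lowest count of a member. Whether vessel content or RNA per cell moved was not measured. Leaving out the COTC022 tumor that was highest for 4 members, chosen after seeing the data, left 0 members called between trials, 6 with GS-1, 35 pairs and 69 list relations. No paired analysis was possible because each dog has its own number and none is shared between the trials.

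No alternative called a member between the trials. The uncalled values changed sign for PECAM1 with edgeR (-0.011), DESeq2 (-0.017), in the 136 libraries (-0.10) and without that tumor (-0.011), and for KDR with edgeR (0.0030). In the 50 libraries they changed to 0.0082 for VWF, 0.20 for CDH5, 0.15 for KDR, 0.24 for FLT1 and -0.091 for ANGPT2, and in the 136 to -0.16 for TEK and -0.067 for TIE1. The ratio of the ligands differed by 0.30 to 0.41 between trials in its alternatives.

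The number of members called with GS-1 was 2 in the 136 libraries and 1 in COTC021. It was 3 with the other endothelial score as a covariate, and 4 to 6 in the other alternatives. Of all 13422 genes, 4611 were called in the 136 libraries, 3512 in COTC021 and 5623 with that covariate. With that covariate the slopes changed to -0.043 for CDH5, -0.034 for KDR, -0.11 for FLT1, -0.14 for TIE1 and -0.073 for ANGPT2. ANGPT2 also changed to -0.082 in the 136 libraries, -0.12 in COTC021 and -0.034 without the farthest pair. The cause was not tested.

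Between 29 and 37 of 45 pairs were called in the alternatives. The uncalled r of ANGPT1 with ANGPT2 turned positive with quantile normalization (0.0019), in COTC021 (0.032) and in the 136 libraries (0.029), and that of ANGPT1 with VWF in COTC022 (0.0029). In COTC021 its r with PECAM1 became -0.023 and with ENG -0.029.

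List relations called numbered 34 in the 50 libraries and 30 of 110 with the endothelial covariate, and 48 to 74 otherwise. With that covariate the partial r changed sign for mural markers with CDH5 (-0.017) and TIE1 (-0.18), for hypoxia with PECAM1 (0.25), KDR (0.031) and ENG (0.036), and for proliferation with PECAM1 (0.11), VWF (0.030), CDH5 (0.23), KDR (0.18), FLT1 (0.038), TIE1 (0.16) and ENG (0.064).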
